A study of Homo sapiens with 3 samples.

Results

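The region described here is the stretch of chromosome 8 that lies within 1.5 Mb on both sides of the transcription start site (TSS) of MYC, including the whole of the neighbouring long non-coding RNA gene PVT1. Its members are the p300/CBP peaks whose centre falls in this window of 3 Mb. There were 203 such peaks in the siCTL list and 124 in the siFra-1 list, 327 of 122221 peaks in all. The complete lists hold 82901 peaks (siCTL) and 39320 peaks (siFra-1).

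The peaks come from the established triple-negative (basal b) breast cancer line MDA-MB-231, transfected for 72 h with a control siRNA (siCTL) or with a mix of 3 siRNAs directed against the AP-1 subunit Fra-1 (siFra-1), both at 4.5 nM. After 7 min of fixation, DNA bound by p300/CBP was recovered by immunoprecipitation and sequenced, so as to learn whether p300/CBP occupancy depends on Fra-1. The series has 3 samples, of which the input was not analysed here. Each condition is 1 library made from pooled immunoprecipitations, so there is no spread between replicates. The intervals given are at 95%, reflect only the counting of peaks and compare 2 libraries. The lists hold positions on hg19 and nothing else: peak height, read depth, the amount of Fra-1, MYC and PVT1 expression and the copy number of the region were not measured by them.

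MYC encodes a transcription factor that drives growth and proliferation, and it sits almost alone among protein-coding genes in a region rich in long non-coding RNA genes. Distal enhancers scattered over this region are known to contact the MYC promoter in a manner that depends on the cell type, and PVT1, which begins shortly downstream of MYC, hosts several of them in breast cells. p300 and CBP are related lysine acetyltransferases that acetylate histones and are found at active enhancers and promoters, where they are brought by sequence-specific factors such as AP-1, a dimer of a Fos protein (Fra-1 is one) and a Jun protein.

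The window was dense in p300/CBP peaks in both conditions, and its wide peaks lay mostly in PVT1. The siCTL list had 67.7 peaks per Mb there against 29.0 per Mb in the rest of the genome, and the siFra-1 list had 41.3 against 13.7. For peaks of at least 250 bp, called wide from here on, the values were 6.67 per Mb against 1.27 (siCTL) and 8.33 per Mb against 2.09 (siFra-1). The desert was thus poor in protein-coding genes but not in peaks. Only 3 of the 35 annotated genes that start in the window are protein-coding, namely MYC, LRATD2 and POU5F1B. Few peaks lay outside annotated genes, in a region where the long non-coding RNA genes PCAT1 and PVT1 span 863 and 393 kb. The shares by location were not set against the length that genes cover. By peak centre, introns held 77.8% of the siCTL members (71.6 to 83.0) and 78.2% of the siFra-1 members (70.2 to 84.6), while 7.39% and 8.87% were exonic, and 14.8% and 12.9% lay between genes.

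**Figure D1:**
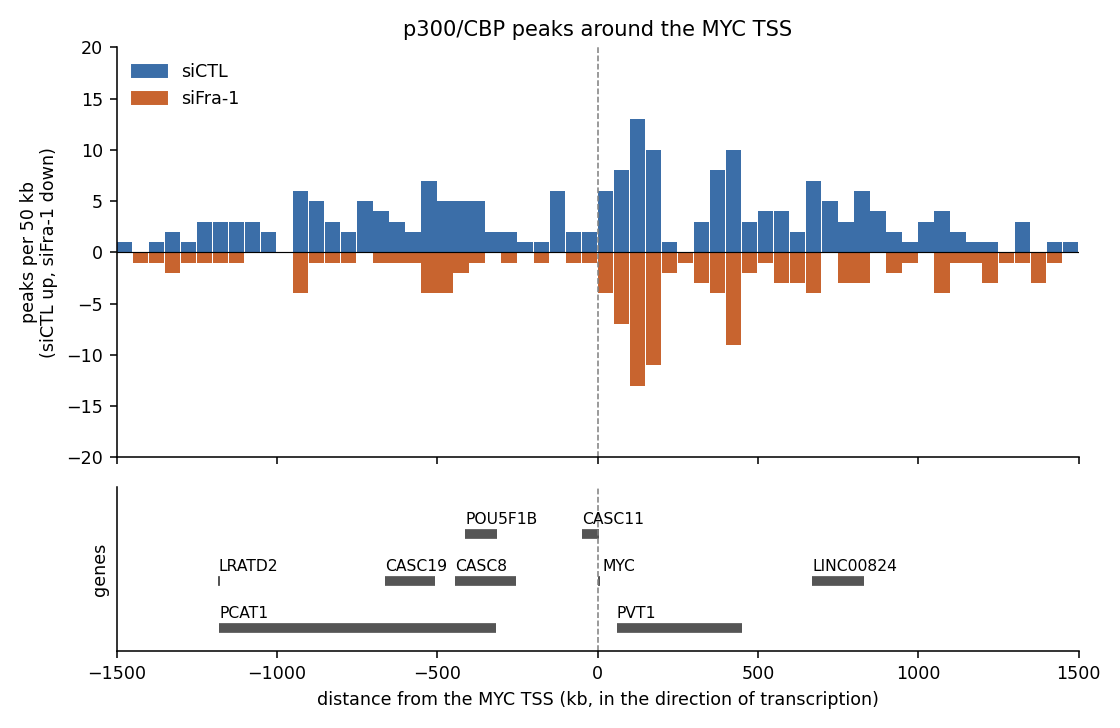
Number of p300/CBP peaks per 50 kb (y axis, siCTL upwards and siFra-1 downwards) against the distance from the MYC TSS in kb (x axis, positive in the direction of MYC transcription), with the named genes drawn below as grey bars. Both profiles are highest over PVT1, with up to 13 peaks per 50 kb in each list, whereas over the whole upstream side there are 87 siCTL and 33 siFra-1 peaks, with a few bins where the bars are equal or the siFra-1 bar is longer.

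There were fewer peaks with siFra-1 than with siCTL in the window, at a siFra-1 to siCTL ratio of 0.611 (0.485 to 0.767). The same ratio was 0.474 (0.468 to 0.480) over the rest of the genome, below the interval of the window, and 0.494 (0.468 to 0.522) over the rest of chromosome 8, an interval that overlaps that of the window. The shortfall was found among narrow peaks. Peaks of 100 bp, the narrowest in the lists, numbered 159 with siCTL and 83 with siFra-1 (ratio 0.522, 0.395 to 0.685), and those of 150 to 200 bp numbered 24 and 16 (0.667, 0.331 to 1.31). Wide peaks numbered 20 and 25, a ratio of 1.25 (0.667 to 2.37) whose interval spans 1, against 1.64 (1.57 to 1.71) over the rest of the genome. The ratio thus went up with width in the window as it did elsewhere, and for wide peaks its interval contains the value of the rest of the genome.

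In the siCTL list, wide peaks were a larger share of the window than of the rest of the genome. Wide peaks made up 9.85% of siCTL members (6.47 to 14.7) against 4.40% in the rest of the genome, a difference of 5.46 percentage points (2.07 to 10.3). In a window of the same size around SOX9, another transcription factor gene flanked by a gene desert, the share was 8.11%, and the difference from it, 1.74 points (-4.74 to 7.69), had an interval that included 0. With siFra-1 the shares were 20.2% (14.0 to 28.1) and 15.2%, and the interval of the difference, 4.95 points (-1.18 to 12.9), included 0. The median width was 100 bp in both lists, the mean width was 141 bp (siCTL) and 188 bp (siFra-1), and the widest peaks were 900 and 1600 bp. Because siFra-1 peaks were fewer but wider, the length covered was closer than the numbers, with 28.6 kb (siCTL) and 23.3 kb (siFra-1).

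The difference in peak number was not even along the window. From 1500 to 500 kb upstream of MYC, 56 siCTL and 22 siFra-1 peaks were found (ratio 0.393, 0.228 to 0.654), and from 500 kb upstream to the TSS 31 and 11 (0.355, 0.161 to 0.725). This upstream side holds POU5F1B, a retrogene of the POU5F1 family, and the cancer-associated long non-coding RNA genes PCAT1, PRNCR1, CASC19, CASC8 and CCAT2. Within PVT1 the numbers were 53 and 51 (0.962, 0.642 to 1.44), and from the end of PVT1 to 1500 kb downstream 57 and 36 (0.632, 0.404 to 0.975). The ratio of the rest of the genome, 0.474, lay within the intervals of both upstream segments and of the segment after PVT1. It lay below the interval of PVT1. The share of members downstream of the MYC TSS was 57.1% with siCTL (50.3 to 63.8) and 73.4% with siFra-1 (65.0 to 80.4), a difference of 16.2 points (5.56 to 26.1). Among wide peaks this shift was not seen, with 80% downstream (siCTL) and 84% (siFra-1), a difference of 4 points (-18.1 to 27.6).

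**Figure D2:**
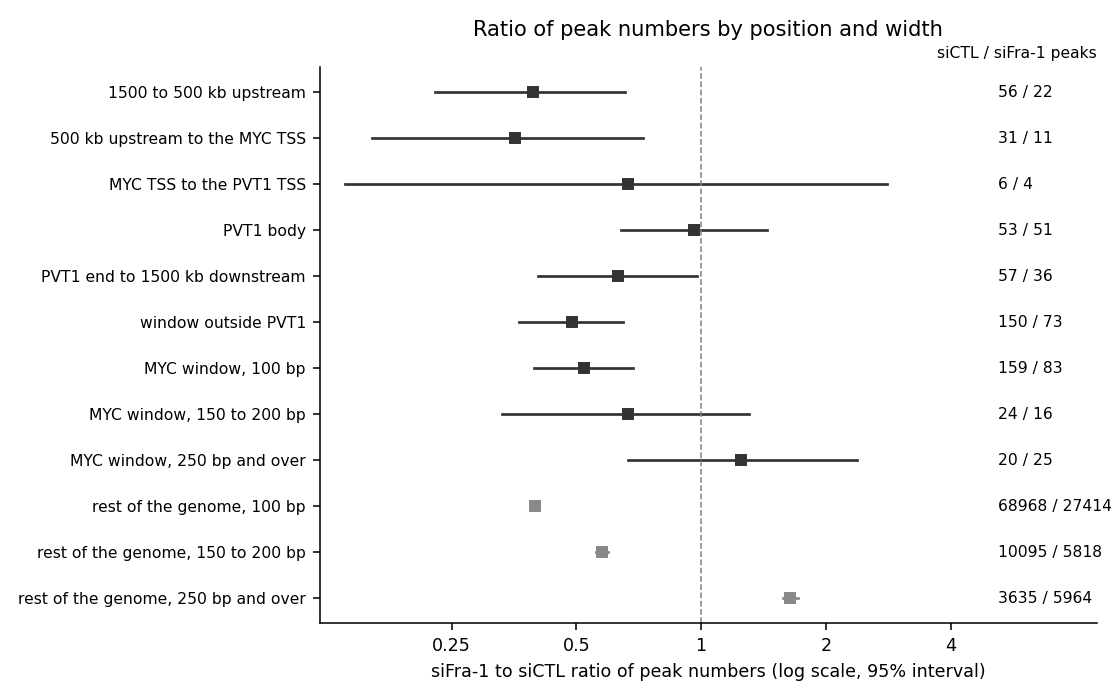
Ratio of siFra-1 to siCTL peak numbers (x axis, log scale; squares are ratios and lines 95% intervals for counting error) for segments of the window and for width classes, with the peak numbers of both lists at the right. The PVT1 body sits near 1 at 0.962 and both upstream segments sit at 0.393 and 0.355; grey squares are width classes of the rest of the genome, from 0.397 at 100 bp to 1.64 at 250 bp and over.

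PVT1 (chr8:128806772-129199347, plus strand, its TSS 59.1 kb downstream of that of MYC) was the densest segment. Its 393 kb held 26.1% of siCTL members (53 peaks, 135 per Mb) and 41.1% of siFra-1 members (51 peaks, 130 per Mb). The wide peaks were still more concentrated there, with 14 of 20 (70%) in the siCTL list and 17 of 25 (68%) in the siFra-1 list. Within PVT1, 26.4% of siCTL peaks were wide against 4% in the rest of the window (difference 22.4 points, 11.5 to 35.8), and 33.3% of siFra-1 peaks against 8 of 73 (22.4 points, 7.75 to 37.1). The ratio by width in PVT1 was 0.735 at 100 bp (34 and 25 peaks, 0.421 to 1.27), 1.80 at 150 to 200 bp (5 and 9) and 1.21 for wide peaks (14 and 17). Outside PVT1 it was 0.464 at 100 bp (125 and 58, 0.334 to 0.638), 0.368 at 150 to 200 bp (19 and 7, 0.131 to 0.915) and 1.33 for wide peaks (6 and 8).

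A ratio near 1 was not particular to PVT1. When the genome was cut into consecutive tiles as long as PVT1, the 19 tiles with at least as many peaks as PVT1 had a pooled ratio of 1.03 (0.961 to 1.11), and 13 of them (68.4%) had a ratio at or above that of PVT1. The 217 tiles next in number of peaks had a pooled ratio of 0.594, and the other 6830 tiles with peaks 0.448. Peak density thus moved with the ratio across these tiles. The tiles were grouped by the peaks of both lists together, so siFra-1 peaks count in both the grouping and the ratio. The part of density in the values of PVT1 was not tested.

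**Figure D3:**
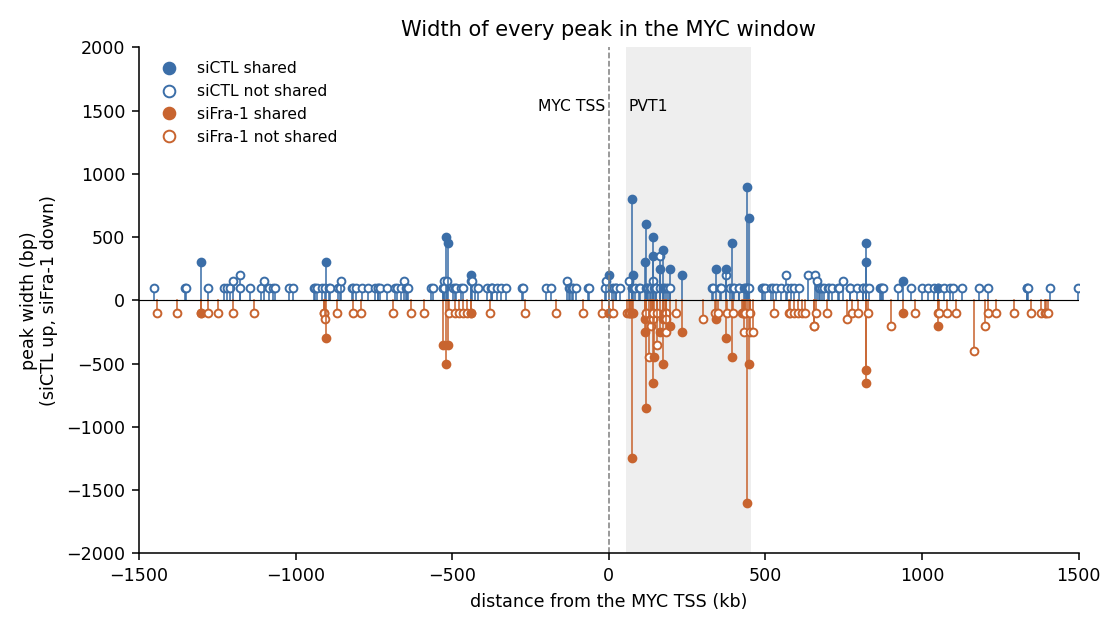
Width of each peak in bp (y axis, siCTL upwards and siFra-1 downwards) against its distance from the MYC TSS in kb (x axis), with filled circles for peaks overlapped by a peak of the other list and open circles for the others; the grey band is PVT1. Most tall lines stand in the grey band and end in filled circles, and no peak of 250 bp or over stands between -512 and 74.0 kb.

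Peaks of the 2 lists were called shared when they overlapped by at least 1 bp. In the window 34 of 203 siCTL peaks were shared, 16.7% (12.2 to 22.5), where 9.56% of the whole siCTL list were, and 33 of 124 siFra-1 peaks, 26.6% (19.6 to 35.0), where 19.1% of the whole siFra-1 list were. The differences from the rest of the genome were 7.21 points (2.69 to 13.0) and 7.50 points (0.495 to 15.9), and from the rest of chromosome 8 they were 6.36 points (1.74 to 12.2) and 6.55 points (-0.673 to 15.1). Against the SOX9 window the intervals of both differences included 0, with 3.91 points (-3.87 to 11.2) for siCTL and 3.24 points (-9.44 to 14.9) for siFra-1. Sharing was more frequent at greater width. Of 100 bp peaks 9 of 159 (5.66%, siCTL) and 10 of 83 (siFra-1) were shared, and of wide peaks 19 of 20 (95%, 76.4 to 99.1, with 85.0% over the whole list) and 18 of 25 (72%, 52.4 to 85.7, with 68.2% over the whole list). Of peaks of at least 500 bp all 6 (siCTL) and all 9 (siFra-1) were shared, where 98.1% and 86.6% were in the rest of the genome. Within a width class the differences from the rest of the genome were 1.88 points (-0.782 to 6.62) for 100 bp siCTL peaks, 5.50 points (0.122 to 14.2) for 100 bp siFra-1 peaks (4.90 points, -0.672 to 13.7, against the rest of chromosome 8), 10.0 points (-8.60 to 14.3) for wide siCTL peaks and 3.86 points (-15.8 to 17.6) for wide siFra-1 peaks.

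Within the window the shared peaks gathered in PVT1. There 39.6% of siCTL peaks (21 of 53) and 39.2% of siFra-1 peaks (20 of 51) were shared, against 8.67% (13 of 150) and 17.8% (13 of 73) outside it. The differences were 31.0 points (17.7 to 44.8) and 21.4 points (5.44 to 36.8). Among 100 bp peaks alone, where width is the same, sharing was 17.6% in PVT1 and 2.4% outside with siCTL (difference 15.2 points, 4.95 to 31.2) and 16% and 10.3% with siFra-1 (5.66 points, -8.53 to 25.1). For unshared peaks the median distance between centres was 9.7 kb for siCTL (20.3 kb in the rest of the genome) and 3.23 kb for siFra-1 (6.38 kb), in a window that is also denser in peaks. Within 1 kb of a peak of the other list lay 9.47% of unshared siCTL peaks (5.91 to 14.8) and 23.1% of unshared siFra-1 peaks (15.6 to 32.7), intervals that contain the values of the rest of the genome (7.22% and 17.6%).

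At MYC itself (chr8:128747680-128755197, plus strand) there was no wide peak in either list. The siCTL list had no peak reaching within 1.5 kb of the TSS, taken at the 5′ end of the gene, and 1 when the TSS was placed 2.31 kb further downstream, at the last protein-coding transcript start. Its nearest peaks were one of 150 bp centred at -9.75 kb, in an intron of the antisense long non-coding RNA gene CASC11, and one of 200 bp at 1.62 kb (chr8:128749202-128749401), in an exon of MYC. The siFra-1 list had a run of 3 peaks of 100 bp in the gene, centred at 0.071 kb (chr8:128747702-128747801), 0.871 kb (chr8:128748502-128748601) and 1.57 kb (chr8:128749202-128749301), all exonic. The last of these was shared with the siCTL peak of 200 bp, and the others were found with siFra-1 alone. With siCTL, 4 more peaks of 100 bp followed between 10.7 and 23.8 kb in the same run, none of them shared. At the PVT1 TSS a siFra-1 peak of 100 bp was centred 0.279 kb inside the gene, whereas the nearest siCTL peak, of 150 bp, was 4.70 kb away. All of these were at or near the narrowest width the lists contain.

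MYC lay in the longest stretch of the window without a wide peak. From chr8:128235252 to chr8:128821651, that is from -512 to 74.0 kb around the TSS, neither list had a wide peak over 586 kb. Such a stretch is not rare, since 18.5% of the intervals between wide sites in the genome (1302 of 7054) were at least as long. Wide sites on both sides of it were occupied in both conditions, those of CASC19 at its upstream end and those of PVT1 at its downstream end.

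Overlapping peaks of the 2 lists, joined into sites, gave 29 sites with a wide peak in at least 1 list, of which 20 were in PVT1. At 21 of the 29 sites both lists had a peak, at 7 only siFra-1 and at 1 only siCTL. In the rest of the genome 65.4% of wide sites were in both lists and 7.74% in siCTL alone. Where both had a peak, the covered length was greater with siFra-1 at 11 sites, greater with siCTL at 5 and equal at 5. The share wider with siFra-1 was 52.4% (32.4 to 71.7) and the median difference was 50 bp, against 66.3% and 100 bp in the rest of the genome, a difference of -13.9 points whose interval (-33.9 to 5.44) included 0. Sites found with siFra-1 alone made up 24.1% of wide sites (12.2 to 42.1) against 26.9% in the rest of the genome.

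**Figure D4:**
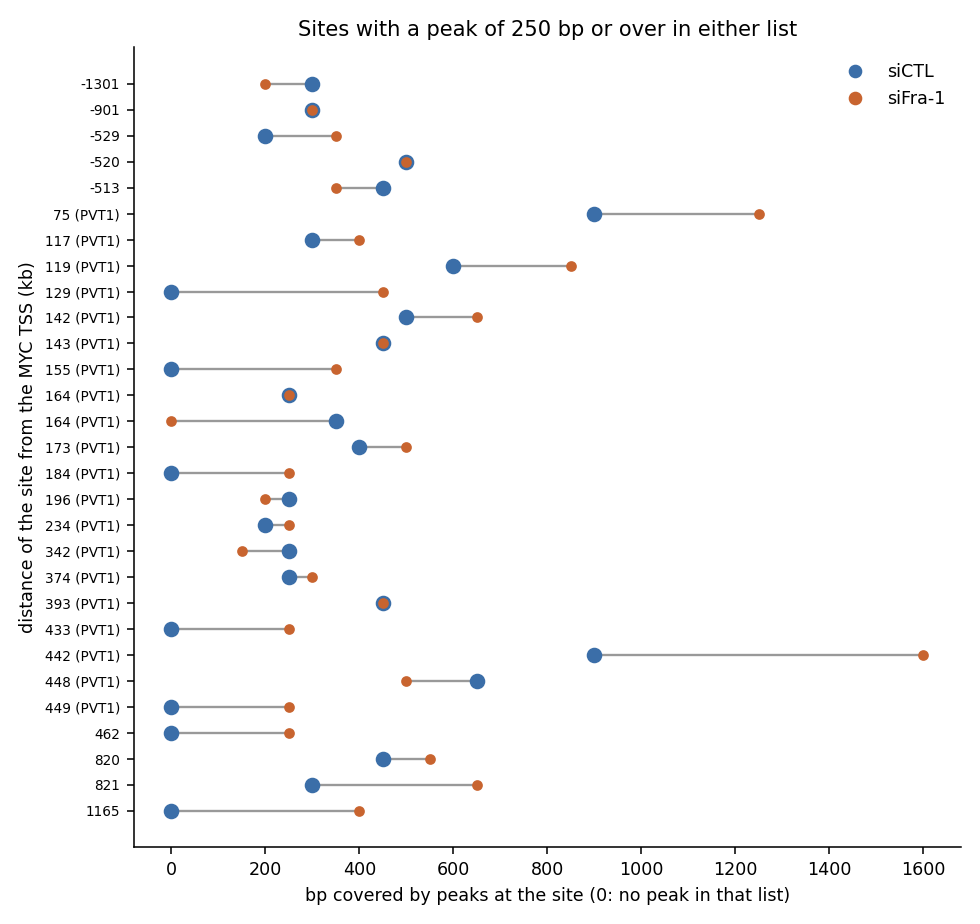
Length covered by peaks in bp (x axis) at each of the 29 sites with a peak of 250 bp or over in either list, ordered by distance from the MYC TSS in kb (y axis), with large blue circles for siCTL, small orange circles for siFra-1 and a circle at 0 where that list had no peak. Orange lies to the right of blue at 18 sites (7 of them with blue at 0), to the left at 6 and on it at 5.

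The widest sites, most of them in introns of PVT1, were all shared, as were most peaks of at least 500 bp in the rest of the genome. The widest in both lists was the same, near the 3′ end of PVT1, where the siCTL peak was 900 bp (chr8:129188702-129189601) and the siFra-1 peak 1600 bp (chr8:129188702-129190301), with the same start. The next siCTL peak in width was 800 bp (chr8:128821952-128822751), 74.7 kb downstream of the MYC TSS, within a siFra-1 peak of 1250 bp (chr8:128821652-128822901). This siFra-1 peak also overlapped a siCTL peak of 100 bp, so siCTL peaks covered 900 bp of the site. At chr8:128866152-128866751 the siCTL peak was 600 bp and its siFra-1 counterpart, which had the same start, 850 bp. The paper assayed a region overlapping this site and placed it among those with little or no change in p300/CBP signal after Fra-1 knockdown. The greater width there can therefore not be read as a gain of signal. At chr8:128888902-128889401 the siCTL and siFra-1 peaks were 500 and 650 bp, again with a common start. These 4 sites were wider with siFra-1, whereas at chr8:129195352-129196001, a few kb from the 3′ end of the gene, the siCTL peak of 650 bp was wider than the siFra-1 peak of 500 bp.

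Some other wide sites were closer in width in the 2 lists. In PVT1 the peaks at chr8:129140002-129140451 (siCTL) and chr8:129140052-129140501 (siFra-1) were both 450 bp. At chr8:128920102-128920501 the siCTL peak was 400 bp and the siFra-1 peak 500 bp, so this site was wider with siFra-1. At chr8:128890052-128890401 they were 350 and 450 bp. The siFra-1 peak there also overlapped a siCTL peak of 100 bp, so the covered length was 450 bp in both lists. The only wide siCTL peak without a siFra-1 overlap was the 350 bp peak at chr8:128911552-128911901, whose centre was 0.45 kb from that of the nearest siFra-1 peak. Of the 7 wide siFra-1 peaks without a siCTL overlap, 5 were in PVT1, and the widest was 450 bp (chr8:128876152-128876601, 129 kb downstream of the MYC TSS). The nearest siCTL peak to it was 1.68 kb away. Another of 400 bp, far from PVT1 in an intron of the long non-coding RNA gene CCDC26 (chr8:129912952-129913351), had its nearest siCTL peak 15.8 kb away.

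Outside PVT1, wide sites occurred in 2 other places with more than 1 site. In CASC19, between -529 and -513 kb from the MYC TSS, the siCTL and siFra-1 peaks were both 500 bp at chr8:128227352-128227851 (siFra-1 50 bp further downstream), and 450 and 350 bp at chr8:128234802-128235251. Another site there was wide with siFra-1 alone, a 350 bp peak at chr8:128218402-128218751 over 2 siCTL peaks of 100 bp. In LINC00824, about 820 kb downstream, the siCTL peak of 450 bp at chr8:129567152-129567601 lay within a siFra-1 peak of 550 bp, and next to it a siFra-1 peak of 650 bp (chr8:129568702-129569351) covered a siCTL peak of 300 bp. The remaining shared sites were single. In PCAT1 both lists had the identical peak of 300 bp at chr8:127846152-127846451, and at chr8:127446052-127446351, between genes at -1301 kb, a siCTL peak of 300 bp met 2 siFra-1 peaks of 100 bp.

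Runs were taken as 3 or more peaks of 1 list with gaps of at most 10 kb. This gap was fixed, while the window is denser in peaks than the genome. The median gap between siCTL peaks was 8.08 kb in the window and 15.5 kb over the whole list. For siFra-1 these were 10.1 and 24.8 kb, and the part of density in the shares of peaks in runs was not tested. The siCTL list had 24 runs with 119 peaks (58.6% of members, against 35.8% of the whole list), and the siFra-1 list 12 runs with 66 peaks (53.2%, against 31.3%). Of the siFra-1 runs 10 of 12 overlapped a siCTL run, and of the siCTL runs 10 of 24 overlapped a siFra-1 run. Overlap of runs was not counted outside the window, so it cannot be called particular to it. The longest run had 13 peaks in each list and began at the same base in PVT1, at chr8:128864252-128897401 with siCTL and chr8:128864252-128890551 with siFra-1. Runs at least as long numbered 128 (siCTL) and 69 (siFra-1) in the genome.

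**Figure D5:**
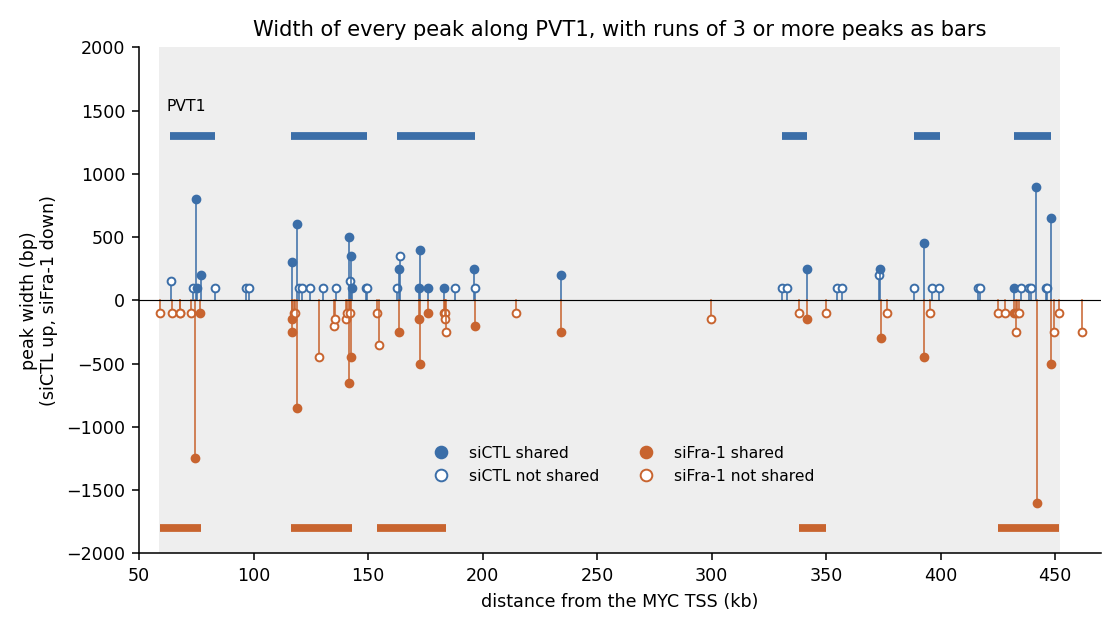
Width of each peak along PVT1 in bp (y axis, siCTL upwards and siFra-1 downwards) against the distance from the MYC TSS in kb (x axis), with filled circles for shared peaks and horizontal bars for the extent of runs of 3 or more peaks. The runs of both lists lie over the same 4 main stretches of the gene, between 59.3 and 83.3 kb, 117 and 150 kb, 154 and 197 kb, and 425 and 451 kb, with runs of 3 or 4 peaks between 331 and 399 kb.

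The next longest runs were also in PVT1 and were largely the same stretches in both conditions. With siCTL they had 10 peaks (chr8:128910252-128944351) and 8 peaks (chr8:129179752-129196001), and with siFra-1 10 peaks (chr8:128901602-128931701) and 10 peaks (chr8:129172702-129199151). At the start of the gene a siFra-1 run of 7 peaks (chr8:128807002-128824551) overlapped a siCTL run of 6 (chr8:128811402-128830951). Over the rest of PVT1 the peaks of both lists fell in short runs or alone.

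Of the siCTL runs with a wide peak 8 of 9 overlapped a siFra-1 run, and of those made of narrow peaks 2 of 15. Of the siFra-1 runs, 7 of 7 with a wide peak and 3 of 5 without overlapped a siCTL run. These overlaps too were not counted outside the window, and over the whole siCTL list 85.0% of wide peaks were shared. Upstream, the siCTL run of 7 peaks in CASC19 (chr8:128218452-128235251), which contains wide peaks, was matched by a siFra-1 run of 4 (chr8:128218402-128237751), and a siCTL run of 5 peaks in PCAT1 that includes the identical peak of 300 bp overlapped a siFra-1 run of 4 (chr8:127836802-127846451). In contrast, a siCTL run of 6 peaks between -134 and -104 kb (chr8:128614052-128643951), the longest between CASC19 and MYC, had no siFra-1 peak in its span, and its widest peak was 150 bp. Downstream of PVT1, a siCTL run of 6 narrow peaks reaching into LINC00824 (chr8:129405902-129435501) had 1 siFra-1 peak in its span and none shared. It nevertheless overlapped a siFra-1 run of 3 peaks (chr8:129403202-129409251) at its upstream end. A siCTL run of 6 with the wide sites of LINC00824 (chr8:129557652-129577301) had 3 siFra-1 peaks, of which 2 were wide.

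Each of the named genes upstream of MYC that held peaks held fewer with siFra-1 than with siCTL, apart from CASC11, which reaches over the MYC TSS and held 3 siCTL and 4 siFra-1 peaks. PCAT1, which in the annotation used spans 863 kb and overlaps most of the others, held 64 siCTL peaks (3 wide) and 22 siFra-1 peaks (4 wide). CASC8 held 14 and 4, with none wide, CASC19 13 (2 wide) and 6 (3 wide), POU5F1B 7 and 1, and PRNCR1 3 and 0. In this annotation POU5F1B spans 97.9 kb and lies within CASC8, and PRNCR1 lies within CASC19. The same peaks are thus counted under more than 1 gene. Neither list had a peak in CCAT2. LRATD2, which like POU5F1B is protein-coding, held 1 siCTL peak and 0 siFra-1 peaks. Of the microRNA genes embedded in PVT1, MIR1205, MIR1207 and MIR1208 were annotated and held no peak in either list. LINC00824 downstream held 18 siCTL peaks and 7 siFra-1 peaks, with 2 wide peaks in each. Over the rest of the genome peaks were also fewer with siFra-1, at a ratio of 0.474.

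AP-1 binds the near-palindrome TGAGTCA, and this heptamer was looked for on both strands in the 200 bp around each peak centre. It was present at 22 of 203 siCTL peaks, 10.8% (7.27 to 15.9), and at 16 of 124 siFra-1 peaks, 12.9% (8.10 to 19.9). In windows moved by 2 kb on both sides of the same peaks the shares were 4.93% and 5.24%. Over the whole lists the shares were 6.15% and 9.08% at the peaks, and 3.08% and 3.18% in the moved windows. The siCTL members exceeded the rest of their list by 4.70 points (1.13 to 9.73), and for siFra-1 the interval of the difference, 3.84 points (-0.973 to 10.9), included 0. The moved windows of the members were also above those of the whole lists, and the part of this in the excess was not tested. As elsewhere, the motif was more frequent at wide peaks, with 6 of 20 (30%, siCTL) and 7 of 25 (28%, siFra-1) against 31.9% and 22.9% of wide peaks over the whole lists.

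Counted over the whole length of wide peaks, the heptamer was present in 10 of 19 shared siCTL peaks and in 10 of 18 shared siFra-1 peaks (55.6%, 33.7 to 75.4). It was present in 0 of the 7 wide siFra-1 peaks without siCTL overlap, with a Wilson interval of 0 to 35.4%. In the rest of the genome 39.3% of shared and 17.9% of unshared wide siFra-1 peaks held it. The unshared peaks were narrower, with a median of 250 bp in the window against 475 bp for shared ones, and the part of the length searched in this difference was not tested. The single unshared wide siCTL peak, at chr8:128911552-128911901, held 2 copies. Among the widest sites, the 1600 bp siFra-1 peak and the 900 bp siCTL peak at the 3′ end of PVT1 held 1 copy, the site of 850 and 600 bp held 2, and the sites of 1250 and 800 bp and of 650 and 500 bp held none.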

How the data were processed

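Per the labels, p300/CBP chromatin immunoprecipitation was sequenced after transfection of siCTL or siFra-1, and reads were placed on hg19. The submitters' processing notes name Bowtie2, whereas the methods of the study name BWA-backtrack, and the difference could not be settled from the files. According to these methods replicate immunoprecipitations were pooled before library preparation. The authors binned the signal (50 bp), scaled it, subtracted background and called peaks where it exceeded 25 over at least 50 bp, bridging gaps of up to 50 bp. A parameter of unstated meaning differed between the lists (79 for siCTL, 130 for siFra-1). Scaling, background subtraction and a fixed threshold act on peak number and width, and their part in the differences was not tested. The deposited values are peak positions, with no counts, signal, score or p-value, so the depth per sample, and with it the precision, is unknown. A peak that misses the threshold is absent from a list.

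Intervals were read as BED with starts raised by 1. Genes came from GENCODE release 44 on GRCh37, and distances were taken from the 5′ end of MYC (128747680). Of 22 gene symbols sought, 14 were annotated in the window and the others were not analysed here. Shared peaks overlapped by at least 1 bp. Shares have Wilson, differences Newcombe and ratios Clopper-Pearson intervals (95%). They treat peaks as independent, which neighbours are not. No test was made, as there is 1 library per condition. The 5 motifs (AP-1 TGAGTCA, TEAD GGAATG, RUNX TGTGGT, TCF/LEF CTTTGAT, E-box CACGTG) were matched on both strands in 200 bp around the centre, and in the whole peak for wide peaks taken by sharing or one by one. Functions in Python 3.11.15 with numpy 2.4.6 and scipy 1.17.1 were tested on simulated data, and plots were made with matplotlib 3.10.9.

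Members, gene list, width classes and comparisons were chosen with earlier results of these data known. As more than 40 peaks were wide, the rule for named peaks took the 15 widest of each list with their counterparts, the peaks nearest to MYC on each side, those within 1.5 kb of the MYC or PVT1 TSS, and the 5 longest runs of each list. The other runs named, the comparison of PVT1 with the rest of the window, the segments, sites, tiles, motifs by sharing and gaps were chosen after values were seen. Alternatives were minimum widths of 150 and 250 bp, merging within 500 bp, windows of 0.5 and 1 Mb, another MYC TSS, 2 definitions of sharing, run gaps of 5 and 20 kb, and motifs in 400 bp, in the whole peak or in the looser form TGANTCA.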

Additional observations from a re-analysis of the deposited data

How the results depend on the processing

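Of 40 alternatives, 24 left a value within its interval, or a count of runs within 1.5 times. When only peaks from 150 bp upwards were kept, the siFra-1 to siCTL ratio in the window was 0.932. The share of peaks shared (among such peaks of both lists) was 43.2% for siCTL and 48.8% for siFra-1. Downstream of the MYC TSS lay 63.6% of such siCTL peaks and 87.8% of such siFra-1 peaks, and 4 runs were left in each list. At 250 bp the ratio was 1.25, on the other side of 1 from the value for all peaks with an interval (0.667 to 2.37) that includes 1, the shares of shared peaks were 80% and 64%, and 80% (siCTL) and 84% (siFra-1) lay downstream. Within PVT1 the ratio went from 0.962 for all peaks to 1.37 (150 bp) and 1.21 (250 bp), with intervals that include 1. In a window of 0.5 Mb on each side the downstream shares were 66.7% and 83.6%. With motifs sought in 400 bp, 16.3% (siCTL) and 21.8% (siFra-1) of members held the AP-1 heptamer. With the most downstream protein-coding MYC TSS, an alternative extended after seeing the data, the peak number ratio was again 0.611 and the downstream shares were 56.7% (siCTL) and 71.0% (siFra-1), while 1 siCTL peak (0 at the gene's 5′ end) and 2 siFra-1 peaks reached within 1.5 kb of it. Merging of neighbours left the peak number ratio within its interval, the other definitions of overlap the shared shares, and run gaps of 5 and 20 kb the number of runs within 1.5 times. The cause of the changes with width was not tested, beyond that narrow peaks, most of each list, are left out. No paired analysis was possible because each condition is 1 library. Read depth, which limits how many weak peaks pass the threshold, is unknown.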

Other observations

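The TEAD hexamer GGAATG, bound by the DNA-binding partners of YAP and TAZ, was present in the 200 bp around 14.3% of siCTL peaks (13.2% of the whole list) and 23.4% of siFra-1 peaks (17.4%), with differences from the rest of each list of 1.06 points (-3.09 to 6.55) and 5.97 points (-0.620 to 14.2). Of the positions moved by 2 kb, 9.11% (siCTL) and 10.1% (siFra-1) held it. The widest site, near the 3′ end of PVT1, held 5 copies of it in both the 900 bp and the 1600 bp peak. The RUNX hexamer TGTGGT was at 13.3% and 14.5% of members (15.6% and 17.6% of the whole lists), and at 13.5% and 12.9% of moved positions. Among wide siFra-1 peaks, counted over the whole peak, it was in 6 of the 7 without siCTL overlap (85.7%, 48.7 to 97.4) and in 8 of the 18 shared ones (44.4%, 24.6 to 66.3), where the rest of the genome had 39.5% and 40.4%. For the TEAD hexamer these were 4 of the 7 and 9 of the 18, where the rest of the genome had 38.6% and 47.9%. The TCF/LEF heptamer CTTTGAT, through which WNT signalling acts, was at 1.48% of siCTL members (3 peaks) and 3.23% of siFra-1 members (4 peaks), where the whole lists had 2.96% and 3.03% and moved positions 4.43% and 5.24%. The E-box CACGTG, which MYC itself binds, was at 0.493% (1 peak) and 1.61% (2 peaks), where the whole lists had 2.50% and 2.56% and moved positions 2.22% and 2.82%.

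Against tiles of 3000 kb over the genome, 39 of 1021 (3.82%) held at least as many siCTL peaks as the MYC window and 21 (2.06%) at least as many siFra-1 peaks. For wide peaks these were 5 tiles (0.490%) and 12 tiles (1.18%). PVT1 stood higher among the 7868 tiles of its own length, of which 36 (0.458%) held as many siCTL peaks and 21 (0.267%) as many siFra-1 peaks, and 3 (0.0381%) and 10 (0.127%) as many wide peaks. The SOX9 window on chromosome 17 held 148 siCTL and 77 siFra-1 peaks (ratio 0.520, 0.390 to 0.690), of which 12 and 13 were wide, and the intervals of the ratios of both windows overlap.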
